A study of Mus musculus with 11 samples.

Results

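The numbered Zfp genes of the mouse are named for the zinc fingers they encode, and most of them are transcription factors or other nucleic acid binding proteins. The genes described here were chosen by symbol and by level: a symbol made of Zfp and a number, with Zfp36 left out, and a mean of at least 3 FPKM over 11 libraries. FPKM counts the fragments of a gene per kilobase of transcript, scaled to the fragments of its library. This selected 85 of 373 numbered Zfp genes in a table of 54686 entries, and the level that selected them is used below as a description only. At the threshold, Zfp444 (3.22 FPKM), Zfp787 (3.10 FPKM) and Zfp532 (3.005 FPKM) were just inside, and Zfp462 (2.95 FPKM), Zfp775 (2.69 FPKM) and Zfp358 (2.65 FPKM) were just outside. All 85 passed the filter on low values and were tested.

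A C2H2 zinc finger folds around a zinc ion held by paired cysteines and histidines, and a row of such fingers reads a stretch of DNA. In many members of the family the fingers follow a KRAB box, which recruits the corepressor TRIM28 and through it histone methylation and heterochromatin proteins, while others carry a SCAN or a BTB domain that lets proteins pair, and some have left DNA binding for work on ribosomes, RNA or the mitotic spindle. Heat shock makes cells raise chaperone genes through HSF1 while much other transcription falls, and YAP and TAZ, held back by Hippo signalling, switch on genes together with TEAD factors.

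The cells were B16-OVA, a melanoma line from C57BL/6J mice that expresses ovalbumin, transfected either with a control siRNA or with pooled siRNAs to YAP and TAZ, and harvested with or without heat shock. The 4 groups had 3 libraries each, except heated control siRNA, which had 2 (replicates 1 and 3). All cells were transfected. Heat was given 48 h after transfection, at 45 °C for 1 h, with recovery at 37 °C for 6 h. The labels do not say whether the unheated cells were harvested at the same hour, nor whether replicates were grown separately. The p-values therefore measure only how far these libraries spread, which may be technical. All groups come from a single line, and the siRNA pool lowers its targets without removing them.

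The libraries held 30.5 to 43.9 M fragments, estimated from the smallest steps between low values, and a member had the equivalent of 208 to 8195 fragments over its length (median 845). Log2 values correlated at 0.977 to 0.984 within groups and at 0.900 to 0.958 between groups across genes. Yap1 and Wwtr1, the genes of YAP and TAZ, spanned 5.38 to 15.6 FPKM in control siRNA libraries and 1.40 to 3.02 FPKM in YAP/TAZ siRNA libraries. The chaperone genes Hspa1a, Hspa1b and Hspb1 spanned 0.439 to 16.1 FPKM before heat, and after it 1033 to 3321 FPKM under control siRNA and 14.7 to 232 FPKM under YAP/TAZ siRNA. All 7 melanocyte markers were at 18.2 FPKM or more in every library. Of 19 markers of other cell types, 15 to 18 were below 1 FPKM in every library of a group, and their summed level was 4.46 to 4.64 FPKM under control siRNA, 9.75 to 10.5 FPKM with heat added, 2.21 to 2.97 FPKM under YAP/TAZ siRNA and 3.70 to 4.10 FPKM with heat added. Ptprc, Dcn, Cdh5 and Krt10, markers of leukocytes, fibroblasts, endothelium and keratinocytes, were at 0 in all 11 libraries. Others of the same lists were not: the macrophage marker Lyz2 was at 1.01 to 2.48 FPKM in all 11. The fibroblast marker Pdgfrb was at 1.48 to 1.71 FPKM in unheated control siRNA libraries. A further 3 markers were higher with heat under control siRNA. Cd68, a macrophage marker, went from a mean of 0.718 to 4.23 FPKM (log2 change 1.603, adjusted p = 3.57e-05 in limma). The B cell marker Cd79a went from 0.228 to 1.85 FPKM, and it passed the filter on low values only through the heated control siRNA libraries. The endothelial marker Pecam1, not tested because of that filter, went from 0.0283 to 0.998 FPKM. The part of these marker differences in the results below was not tested.

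The proteins of the members differ widely in build. Translated from the annotation, 78 of 85 held at least 1 C2H2 finger by a fixed residue pattern, 62 held at least 3 and 22 held 10 or more, with a median of 5 and a maximum of 32 in Zfp142. The 7 without a match were Zfp330, Zfp365, Zfp414, Zfp608, Zfp609, Zfp703 and Zfp704, which need not lack zinc-binding residues of another spacing. A KRAB box matched the planned pattern in 4 members and a wider pattern, chosen after the sequences were seen, in 9, which were Zfp445, Zfp568, Zfp984, Zfp110, Zfp282, Zfp212, Zfp777, Zfp266 and Zfp317. Chromosome 7 held 20 members and chromosome 6 held 9, and 22 members lay within 500 kb of another. Exons of 37 members overlapped those of another gene, 33 of them on the opposite strand. The strandedness of the counting is not given in the sources used here, so reads of a member and its antisense partner cannot be told apart. Among the genes named below, Zfp91, Zfp414, Zfp984, Zfp787 and Zfp524 overlap others on the same strand (Cntf, Gm20507, Gm20707, Gm45841 and Gm44973). Zfp687, Zfp513, Zfp646, Zfp511, Zfp524, Zfp219, Zfp740, Zfp593 and Zfp428 overlap protein-coding genes on the opposite strand (Pi4kb, Snx17, Prss53 with Zfp668, Tubgcp2, Fiz1, Arhgef40 with Tmem253, Csad, E130218I03Rik and AC161166.1), and others named below overlap genes of other kinds there.

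Promoter windows were in the RefSeq table for 64 of the 85 members (81 windows, from 250 bases before to 50 after a start site, GRCm38.p6). Their median GC content was 61.7%, against 52.7% over all 32851 windows, and their median ratio of observed to expected CpG was 0.82, against 0.38. The heat shock motif GAANNTTC, which is its own reverse complement, was in 7 member windows (8.64%, against 7.86% of all windows). The TEAD motif GGAATG, searched on both strands as GGAATG or CATTCC, was in 11 (13.6%, against 14.7%). Both shares were close to those of all windows, and a match is only a match of letters. The windows below belong to the members with the largest opposed interactions (Zfp692, Zfp507), to a member high under YAP/TAZ siRNA that holds both motifs (Zfp580), and to 2 with the heat shock motif. A window of Zfp384 was the only member window in which the heat shock motif ran on to 3 alternating units (1.23% of member windows, against 0.603% of all). It is printed out of 4 windows of that gene, and for Zfp687 the window with the most matches is printed out of 2. Capitals mark matches to GAANNTTC and to GGAATG or CATTCC, and the windows are printed 5′ to 3′ on the strand of the gene.
Zfp384 (chr6:125010131-125010430, plus strand): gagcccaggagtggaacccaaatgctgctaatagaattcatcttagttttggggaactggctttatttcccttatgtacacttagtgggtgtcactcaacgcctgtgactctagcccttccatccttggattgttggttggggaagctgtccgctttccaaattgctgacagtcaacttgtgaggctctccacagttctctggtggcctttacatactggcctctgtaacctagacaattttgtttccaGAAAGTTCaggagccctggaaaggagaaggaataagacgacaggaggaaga
Zfp580 (chr7:5051282-5051581, plus strand): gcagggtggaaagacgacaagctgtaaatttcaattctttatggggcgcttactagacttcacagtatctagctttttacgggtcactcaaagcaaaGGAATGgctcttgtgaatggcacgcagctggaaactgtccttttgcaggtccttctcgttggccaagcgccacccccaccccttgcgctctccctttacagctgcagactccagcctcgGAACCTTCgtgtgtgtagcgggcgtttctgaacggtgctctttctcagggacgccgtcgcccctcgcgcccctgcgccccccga
Zfp687 (chr3:95015408-95015707, minus strand): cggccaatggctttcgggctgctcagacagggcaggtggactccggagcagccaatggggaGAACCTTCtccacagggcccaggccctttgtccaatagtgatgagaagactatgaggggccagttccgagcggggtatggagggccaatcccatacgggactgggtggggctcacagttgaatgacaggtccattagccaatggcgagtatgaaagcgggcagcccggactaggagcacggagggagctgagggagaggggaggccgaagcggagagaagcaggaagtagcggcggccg
Zfp692 (chr11:58306819-58307118, plus strand): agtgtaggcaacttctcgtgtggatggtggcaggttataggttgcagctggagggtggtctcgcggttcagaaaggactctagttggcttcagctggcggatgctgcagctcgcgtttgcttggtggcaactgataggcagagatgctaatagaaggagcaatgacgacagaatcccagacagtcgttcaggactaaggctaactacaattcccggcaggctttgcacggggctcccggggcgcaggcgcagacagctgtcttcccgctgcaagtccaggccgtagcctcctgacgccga
Zfp507 (chr7:35802940-35803239, minus strand): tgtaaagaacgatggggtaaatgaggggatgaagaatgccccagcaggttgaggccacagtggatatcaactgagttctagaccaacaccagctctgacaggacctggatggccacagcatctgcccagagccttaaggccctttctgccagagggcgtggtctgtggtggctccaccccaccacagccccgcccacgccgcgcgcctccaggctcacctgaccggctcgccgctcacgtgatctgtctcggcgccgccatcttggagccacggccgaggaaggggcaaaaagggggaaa
The heat shock match began at position -1 from the start site in Zfp384, at -34 in Zfp580 and at -189 in Zfp687, and the TEAD match of Zfp580 began at -153. The windows of Zfp692 and Zfp507 held neither motif.

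The members were mostly of low abundance, with mean levels of 3.005 to 34.3 FPKM and a median of 5.87 FPKM, against a median of 10.6 FPKM for the 8794 other entries of at least 3 FPKM. Their changes are therefore set beside those of the 7346 other tested genes of similar level (3 to 34.3 FPKM). Of these, 3141 were at 10 FPKM or more, against 15 members, so the sets were not matched within that range. Summed over the members, the level was 646 ± 14.9 FPKM (SD, n = 3) in unheated control siRNA cells, 620 ± 16.2 FPKM (SD, n = 2) after heat, 685 ± 8.75 FPKM (SD, n = 3) in unheated YAP/TAZ siRNA cells and 591 ± 15.9 FPKM (SD, n = 3) in heated ones. By this sum the unheated YAP/TAZ siRNA cells stood highest and the heated ones lowest. By the members' median level the heated groups were close. It was 5.88 and 5.40 FPKM under control siRNA without and with heat, and 6.49 and 5.42 FPKM under YAP/TAZ siRNA. Differences between groups were fitted with limma on log2(FPKM + 1), which understates the change of low genes, and a gene was called at an adjusted p under 0.05. Values are given in the order of the replicates, and where one group is set against another the first is the unheated one or, between siRNAs, the control siRNA. In bulk RNA, fewer cells of one kind and less RNA per cell cannot be told apart, and FPKM is a share of a library, so a change in other genes moves it too.

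The 5 most abundant members were Zfp706, Zfp207, Zfp106, Zfp598 and Zfp24. Zfp706 (ENSMUSG00000062397, chromosome 15, 36997027 to 37007773, GRCm38) encodes a small protein of 76 residues with 1 finger. Control siRNA libraries held 33.8, 36.4 and 33.96 FPKM of it before heat and 39.7 and 42.9 FPKM afterwards, and YAP/TAZ siRNA libraries 27.6, 29.2 and 31.2 FPKM before and 34.5, 34.8 and 33.7 FPKM afterwards. It was higher after heat under either siRNA, by 0.24 ± 0.061 and 0.22 ± 0.055 on the log2 scale (± SE, adjusted p = 0.00865 and 0.00842 in limma with Benjamini-Hochberg adjustment over 12626 genes, as for all adjusted p-values below), and lower under YAP/TAZ siRNA in either state. Without heated control siRNA replicate 3 neither its heat call under control siRNA nor its siRNA call after heat held (adjusted p = 0.0853 and 0.0594).

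Zfp207, a microtubule-associated partner of the checkpoint protein BUB3, was at 34.02, 34.3 and 34.3 FPKM in unheated control siRNA libraries and at 31.1, 28.4 and 27.8 FPKM in unheated YAP/TAZ siRNA libraries, with no overlap (-0.23 ± 0.046, adjusted p = 0.00274). After heat it was at 29.1 and 29.9 against 25.9, 24.8 and 25.1 FPKM, lower again under YAP/TAZ siRNA (-0.22 ± 0.052, adjusted p = 0.00596). Zfp106, an RNA-binding protein, went from 28.8, 30.00 and 27.3 FPKM under control siRNA to 25.1, 22.1 and 20.1 FPKM under YAP/TAZ siRNA in unheated cells (-0.35 ± 0.083, adjusted p = 0.00668). Heated control siRNA cells held 24.2 and 25.1 FPKM of it and heated YAP/TAZ siRNA cells 18.3, 19.8 and 16.9 FPKM (-0.41 ± 0.092, adjusted p = 0.0045). The ubiquitin ligase gene Zfp598, whose product acts on collided ribosomes, spanned 18.3 to 22.9 FPKM over all libraries and was slightly lower under YAP/TAZ siRNA without heat (-0.19 ± 0.053, adjusted p = 0.0148). That call was lost without any 1 of 3 libraries. Zfp24, a SCAN zinc finger gene, moved the other way: 14.6, 14.2 and 13.6 FPKM in unheated control siRNA libraries and 17.05, 18.4 and 17.5 FPKM under YAP/TAZ siRNA, with 11.7 and 12.02 against 17.7, 18.9 and 15.5 FPKM after heat. It was higher under YAP/TAZ siRNA in both states (0.30 ± 0.068 and 0.51 ± 0.077, adjusted p = 0.0051 and 4.56e-04), and no library overlapped between the siRNAs in either state.

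Heat under control siRNA was followed by lower levels of more members than higher ones. Of 85 members, 27 were called lower, 13 higher and 45 were not called at an adjusted p under 0.05, while 36.9% of all genes tested were lower and 12.4% higher. The members' shares were 31.8% lower and 15.3% higher, against 43.1% and 8.88% of other genes of similar level. Their median log2 change was -0.14, against -0.21 for genes of similar level and -0.16 for all genes, and their interquartile range was 0.63 against 0.45. The split depends on the scaling: under median-of-ratios scaling, as under quantile normalization, 22 members were higher and 17 lower, and the median of all genes went to 0.0058 and -0.044. The shares of all genes were then 22.2% higher and 21.7% lower, and 18.5% and 25.8%. The 17 lower calls under both scalings were all among the 27, and all 13 higher calls were kept. The members' median stayed above that of genes of similar level by 0.069, 0.059 and 0.055 (log2) under the deposited scale and the other scalings.

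Among the members that fell, Zfp692 changed most. Zfp692 (ENSMUSG00000037243, chromosome 11, 58307069 to 58314627), known as AREBP and linked to the control of gluconeogenic genes, went from 13.1, 12.5 and 13.1 FPKM to 4.64 and 5.31 FPKM with heat under control siRNA. All unheated libraries lay above all heated ones, and the log2 change was -1.22 ± 0.076 (adjusted p = 2.51e-06). Zfp687, a subunit of a chromatin complex with Zfp592 and Zmynd8, went from 5.21, 6.57 and 5.66 to 2.03 and 2.33 FPKM (-1.10 ± 0.12, adjusted p = 7.21e-05). Zfp414 went from 6.37, 5.72 and 6.19 to 2.77 and 2.86 FPKM (-0.89 ± 0.084). A lack of overlap between heated and unheated control siRNA libraries was a condition for naming these 3 genes.

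Zfp524 (4.69, 5.43 and 5.07 against 2.27 and 2.37 FPKM, -0.86 ± 0.14), Zfp362 (7.58, 7.44 and 7.47 against 4.02 and 4.09 FPKM, -0.75 ± 0.061) and Zfp282, which encodes a KRAB protein that binds a retroviral repeat (5.79, 5.78 and 5.98 against 3.32 and 3.07 FPKM, -0.71 ± 0.060), completed the 6 with the largest falls, with adjusted p-values of 6.68e-04, 1.08e-05 and 1.40e-05. Exons of Zfp687, Zfp414 and Zfp524 overlap those of other genes, and those of Zfp692, Zfp362 and Zfp282 do not. The 6 calls held under every alternative tried.

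The 6 largest rises under control siRNA rested on less even libraries. Zfp281 (ENSMUSG00000041483, chromosome 1, 136624901 to 136630053), a GC-rich DNA binding factor known from pluripotent cells, rose from 9.78, 9.87 and 8.68 FPKM to 18.6 and 15.9 FPKM (0.80 ± 0.12, adjusted p = 4.22e-04). Zfp654 rose from 4.37, 4.86 and 4.24 to 8.08 and 8.14 FPKM (0.73 ± 0.12, adjusted p = 9.46e-04). In both the heated libraries lay well above every unheated one, and both calls held without any 1 library.

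Zfp568, a KRAB gene known to silence a placental Igf2 transcript, was at 4.72, 4.30 and 3.29 FPKM and then 7.10 and 6.33 FPKM (0.61 ± 0.15, adjusted p = 0.00699). Zfp623 went from 3.92, 2.24 and 2.77 to 7.90 and 7.65 FPKM (1.16 ± 0.30, adjusted p = 0.0103), and Zfp513 from 4.74, 4.24 and 4.01 to 12.2 and 7.65 FPKM (1.004 ± 0.25, adjusted p = 0.00833). Each of these 3 calls was lost without heated control siRNA replicate 1 (adjusted p = 0.0608, 0.0588 and 0.0929). Zfp655 was at 2.79, 9.26 and 7.97 against 13.98 and 13.9 FPKM (1.08 ± 0.34, adjusted p = 0.0239). Its unheated replicate 1 stood far below the other 2, and without it the change was 0.64 (adjusted p = 0.000664). The call was lost without heated control siRNA replicate 1 or 3 (log2 1.08 and 1.09, adjusted p = 0.0995 and 0.0923). Without replicate 1, 6 members in all were called higher in place of 13.

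Heat under YAP/TAZ siRNA was followed by lower levels of 32 members and higher levels of 5, with 48 not called, while 31.7% of all genes were lower and 18.6% higher. The members' shares were 37.6% lower and 5.88% higher, against 34.9% and 16.3% of genes of similar level. Among those genes the share higher rose with level, from 8.97% at 3 to 5 FPKM to 23.5% at 10 FPKM or more. The median log2 change of the members was -0.21, against -0.11 for genes of similar level, with an interquartile range of 0.45 in both. With median-of-ratios scaling 20 members were lower and 7 higher, against 24.4% and 23.4% of all genes. With quantile normalization 20 and 9 were, against 22.7% and 21.6%. The members' median stayed below that of genes of similar level, with differences of -0.10, -0.11 and -0.046 (log2) on the deposited scale and under the other scalings.

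Zfp507 fell furthest. Zfp507 (ENSMUSG00000044452, chromosome 7, 35772343 to 35803003, whose exons overlap antisense transcripts) went from 3.83, 5.33 and 5.09 FPKM to 1.08, 1.92 and 0.759 FPKM with heat under YAP/TAZ siRNA (-1.37 ± 0.21, adjusted p = 6.65e-04). Under control siRNA it was at 2.97, 4.28 and 2.60 against 5.48 and 4.40 FPKM, a difference of 0.49 ± 0.23 that was not called (adjusted p = 0.112). Thus the heated YAP/TAZ siRNA libraries lay below all other libraries of the study.

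Zfp516, an activator of the brown fat gene Ucp1, showed the same order, from 8.44, 7.48 and 5.36 FPKM to 3.47, 4.14 and 3.001 FPKM (-0.82 ± 0.15, adjusted p = 0.00194). Zfp704 went from 5.21, 4.93 and 3.96 to 2.58, 2.75 and 2.06 FPKM (-0.72 ± 0.11, adjusted p = 7.79e-04). Zfp608, a close relative of Zfp609, went from 5.89, 5.54 and 5.28 to 2.90, 4.19 and 2.20 FPKM (-0.71 ± 0.15, adjusted p = 0.0038). Zfp687 fell here too, from 7.63, 6.92 and 6.33 to 3.91, 5.06 and 3.91 FPKM (-0.59 ± 0.11, adjusted p = 0.0019). These 4 were named among called members without overlap between heated and unheated libraries under YAP/TAZ siRNA.

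Zfp445, a KRAB gene that helps maintain imprints, was called lower (-1.10 ± 0.41, adjusted p = 0.0476), yet 1 library set most of the value. Its unheated libraries held 15.9, 17.3 and 15.8 FPKM and its heated ones 11.7, 2.47 and 11.1 FPKM. Without heated YAP/TAZ siRNA replicate 2 the change was -0.48 (adjusted p = 0.000371), and the call was lost under both scalings (adjusted p = 0.0685 and 0.0649) and without any 1 of the 8 libraries of the other 3 groups (adjusted p 0.0633 to 0.109).

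The 5 members that rose with heat under YAP/TAZ siRNA rose by little. Zfp367 went from 9.69, 9.79 and 9.98 to 13.8, 14.9 and 11.8 FPKM (0.42 ± 0.079, adjusted p = 0.00224), and it also rose under control siRNA, from 9.74, 10.9 and 9.53 to 15.8 and 15.3 FPKM (0.58 ± 0.088). Zfp622, the counterpart of a yeast factor of ribosome maturation, rose under both siRNAs as well (0.46 ± 0.085 and 0.24 ± 0.076, adjusted p = 0.00177 and 0.0288). Zfp330, a nucleolar protein gene, was at 0.25 ± 0.075 and the BTB gene Zfp131 at 0.27 ± 0.093 (adjusted p = 0.0191 and 0.0385). The calls of Zfp622, Zfp330 and Zfp131 under YAP/TAZ siRNA were lost without unheated YAP/TAZ siRNA replicate 1 (adjusted p = 0.0947, 0.0678 and 0.118), among other libraries, and that of Zfp131 also with the replicate number as a block (adjusted p = 0.0518). Between 2 and 3 members were called higher without 1 of the unheated replicates 1 and 2 or the heated replicates 1 and 2.

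**Figure D1:**
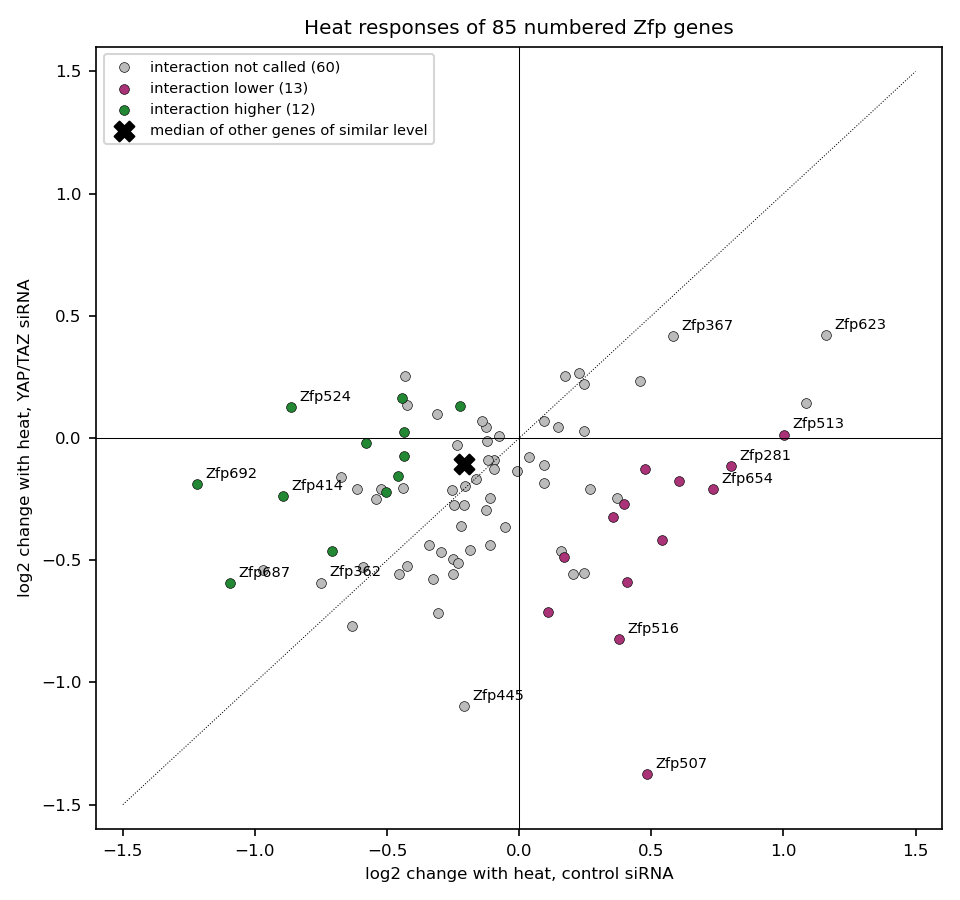
Each point is 1 of 85 numbered Zfp genes, with its log2 change with heat under control siRNA on the x axis and under YAP/TAZ siRNA on the y axis (both on log2(FPKM + 1)). Colours give the call of the interaction (13 lower, 12 higher, 60 not called), the cross is the median of other genes of similar level and the dotted line marks equal changes. Zfp507 (0.49 and -1.37) sits lowest, and Zfp692 (-1.22 and -0.19) and Zfp524 (-0.86 and 0.13) sit far to the left near the level of no change under YAP/TAZ siRNA.

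The heat responses under the 2 siRNAs, which rest on different libraries, shared part of their members. Of the members called lower, 18 were lower under both siRNAs, which is 66.7% of the 27 under control siRNA and 56.2% of the 32 under YAP/TAZ siRNA (49.9% and 61.5% for genes of similar level). Zfp706, Zfp367 and Zfp622 were the 3 higher under both, which is 23.1% of 13 and 60% of 5 (28.4% and 15.4% for genes of similar level). Zfp777, a KRAB gene named after its values were seen, was the 1 member called in opposite directions (1.18% of members, against 6.89% of genes of similar level). It was at 6.24, 6.13 and 7.28 against 9.21 and 8.60 FPKM without and with heat under control siRNA (0.40 ± 0.10), and at 6.77, 7.66 and 7.83 against 5.40, 6.80 and 5.76 FPKM under YAP/TAZ siRNA (-0.27 ± 0.091), where the groups overlapped and the call was lost under both scalings (adjusted p = 0.0994 and 0.283). Its rise under control siRNA was not called without heated control siRNA replicate 1 (adjusted p = 0.0747). Across the 85 members the 2 log2 changes had a Pearson correlation of 0.19, against 0.39 across the genes of similar level. These points are genes of the same 11 libraries and are not independent.

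The interaction, the heat response under YAP/TAZ siRNA minus that under control siRNA, was called lower for 13 members, higher for 12 and not called for 60. Of all genes, 13.4% were called lower and 24.6% higher. The members' shares were 15.3% and 14.1%, against 11.6% and 27.8% of genes of similar level. Their median was -0.10, while that of genes of similar level was 0.14 and that of all genes 0.11, so that the members' median minus that of genes of similar level was -0.24 on the deposited scale and under both other scalings. With median-of-ratios scaling 20 members were lower and 6 higher, against 17.1% and 15.8% of all genes. With quantile normalization 16 and 10 were, against 15.7% and 19.0%. All 13 lower calls and 6 of the 12 higher calls were kept under both. Without heated control siRNA replicate 1, 7 were lower and 6 higher, and without heated YAP/TAZ siRNA replicate 3 the median was -0.037.

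**Figure D2:**
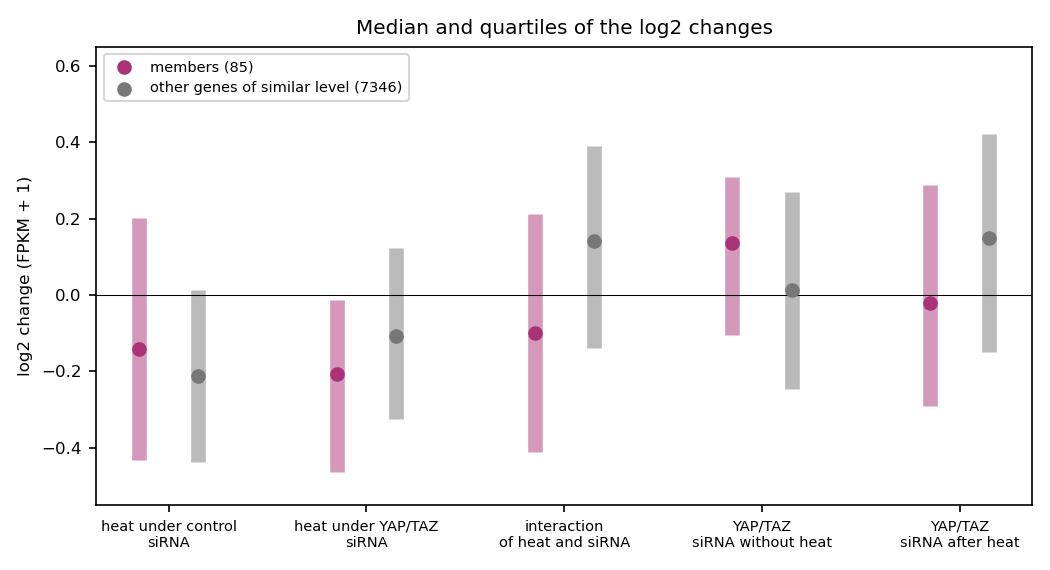
Points are the medians and bars the interquartile ranges of log2 changes in 5 comparisons, for the 85 members and for 7346 other tested genes of similar level. The members' median lies below that of the other genes for the interaction (-0.10 against 0.14) and for YAP/TAZ siRNA after heat (-0.02 against 0.15), and above it for YAP/TAZ siRNA without heat (0.14 against 0.01).

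Zfp507 and Zfp516 had the lowest interactions, -1.86 ± 0.31 (adjusted p = 0.00171) and -1.20 ± 0.23 (adjusted p = 0.00325). Under control siRNA Zfp516 was at 6.91, 5.77 and 5.89 FPKM without and 9.08 and 7.62 FPKM with heat. For Zfp654 (-0.94 ± 0.17, adjusted p = 0.00221) and Zfp281 (-0.92 ± 0.16, adjusted p = 0.00204) the rise with heat was called under control siRNA alone. Under YAP/TAZ siRNA Zfp654 was at 4.80, 5.79 and 4.57 against 4.01, 5.12 and 3.63 FPKM, and Zfp281 at 11.05, 11.6 and 9.95 against 10.1, 11.4 and 8.51 FPKM, without and with heat. In both genes these overlapped. The interaction calls of Zfp507, Zfp516 and Zfp654 held in every alternative, and that of Zfp281 under both scalings and without any 1 library, which is what was run for it.

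Zfp408, named after its values were seen because its siRNA calls were opposed, went from 5.85, 5.35 and 5.51 to 6.83 and 5.97 FPKM with heat under control siRNA, and was at 7.50, 7.02 and 6.94 against 4.61, 5.11 and 4.76 FPKM under YAP/TAZ siRNA (-0.66 ± 0.094, adjusted p = 7.64e-04). Zfp703, a transcriptional repressor known from breast cancer, was at 5.03, 5.40 and 4.38 against 8.67 and 6.68 FPKM under control siRNA and 7.23, 6.04 and 6.63 against 5.06, 6.28 and 3.21 FPKM under YAP/TAZ siRNA (-0.96 ± 0.27, adjusted p = 0.0218), a call lost without heated control siRNA replicate 1 (log2 -0.79, adjusted p = 0.102). Zfp91, which encodes a ubiquitin ligase of NF-kB signalling, had an interaction of -0.999 ± 0.34 (adjusted p = 0.0446), with 9.37, 4.53 and 9.89 FPKM in heated YAP/TAZ siRNA libraries. Zfp513 had one of -0.99 ± 0.33 (adjusted p = 0.043), with 7.73, 7.29 and 7.99 against 6.59, 5.90 and 11.8 FPKM under YAP/TAZ siRNA. The call of Zfp91 was lost without any 1 of 7 libraries (adjusted p 0.0615 to 0.116) and that of Zfp513 without any 1 of 9 (adjusted p 0.0592 to 0.192, with log2 -0.69 without heated control siRNA replicate 1). Both were also lost with the replicate number as a block (adjusted p = 0.0798 and 0.0795) and with no filter (0.0842 and 0.0815).

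Zfp692 and Zfp524 had the highest interactions, 1.03 ± 0.10 (adjusted p = 1.04e-04) and 0.99 ± 0.18 (adjusted p = 0.00296). Under YAP/TAZ siRNA Zfp692 was at 9.38, 8.90 and 9.27 against 8.51, 7.15 and 8.23 FPKM and Zfp524 at 4.58, 5.76 and 7.22 against 5.91, 6.61 and 6.69 FPKM, without and with heat. Both were lowest in the heated control siRNA libraries. The change of Zfp692 with heat under YAP/TAZ siRNA (-0.19 ± 0.068, adjusted p = 0.0453) was not called under either of the other scalings (adjusted p = 0.24 and 0.419). Zfp414 (0.66 ± 0.11, adjusted p = 0.00204) and Zfp638 (0.56 ± 0.10, adjusted p = 0.00295), whose product is known to silence unintegrated retroviral DNA, showed the same order. Zfp638 was at 5.68, 6.85 and 5.92 against 3.62 and 3.93 FPKM under control siRNA, and at 6.38, 6.72 and 6.17 against 6.38, 6.55 and 6.04 FPKM under YAP/TAZ siRNA. Its heated control siRNA libraries lay below all 9 others.

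Zfp593, the counterpart of a yeast ribosome export factor, was at 5.36, 5.96 and 6.59 against 3.78 and 4.47 FPKM under control siRNA and 4.17, 3.85 and 4.91 against 4.72, 5.41 and 4.69 FPKM under YAP/TAZ siRNA (0.61 ± 0.15, adjusted p = 0.011), a call lost without heated control siRNA replicate 1 (log2 0.51, adjusted p = 0.0584). The interaction of Zfp687 (0.50 ± 0.16, adjusted p = 0.0364) was lost with median-of-ratios scaling (adjusted p = 0.065) and without any 1 of 7 libraries (adjusted p 0.0552 to 0.137).

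**Figure D3:**
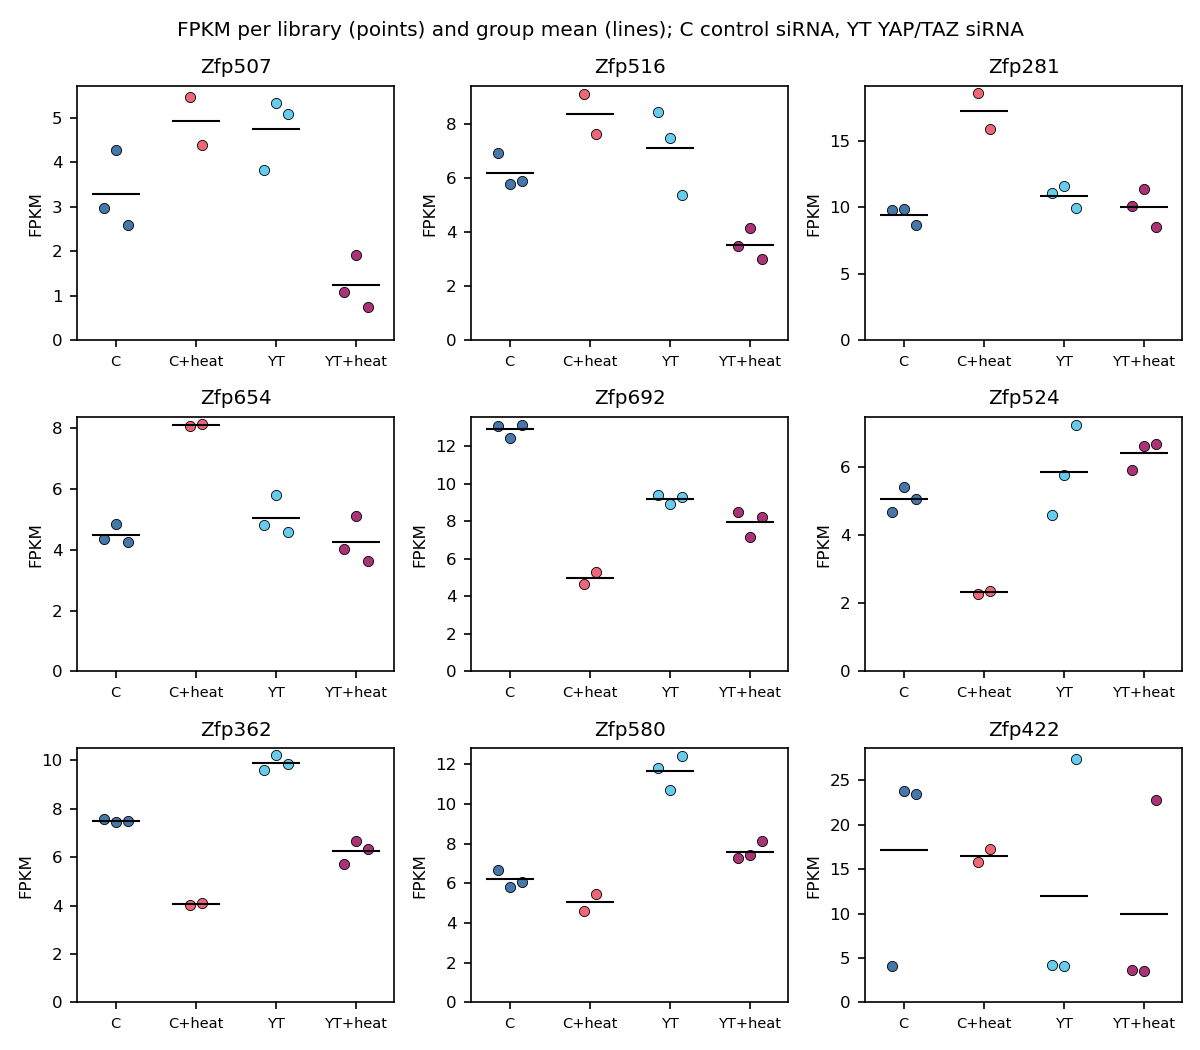
FPKM of 9 members in each library (points) with the mean of each group (lines), for control siRNA (C) and YAP/TAZ siRNA (YT) without and with heat, on axes that start at 0. Heated YAP/TAZ siRNA libraries are lowest for Zfp507 and Zfp516, heated control siRNA libraries are lowest for Zfp692, Zfp524 and Zfp362 and highest for Zfp281 and Zfp654, and Zfp422 splits within groups.

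YAP/TAZ siRNA without heat was accompanied by higher levels of 23 members and lower levels of 12, with 50 not called, while 27.1% of all genes were higher and 21.9% lower. The members' shares were 27.1% and 14.1%, against 27.4% and 24.1% of genes of similar level, so the share of higher members was that of the background and the share of lower ones was smaller. The members' median was 0.14, against 0.013, and the interquartile range 0.41 against 0.52. Among genes of similar level the share lower rose with level, from 16.7% at 3 to 5 FPKM to 30.0% at 10 FPKM or more. Under the other scalings 19 were higher in each, with 14 and 15 lower.

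Zfp580 stood out among the higher members. Zfp580 (ENSMUSG00000055633, chromosome 7, 5051538 to 5053723), whose promoter window above holds both motifs, was at 6.68, 5.80 and 6.08 FPKM under control siRNA and 11.8, 10.7 and 12.4 FPKM under YAP/TAZ siRNA (0.81 ± 0.079, adjusted p = 3.13e-05). After heat it was at 4.62 and 5.47 against 7.26, 7.43 and 8.10 FPKM (0.51 ± 0.089, adjusted p = 0.00105). Its YAP/TAZ siRNA libraries lay above its control siRNA libraries in both states.

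Zfp646, with 27 fingers, was at 4.13, 4.48 and 3.63 against 7.05, 5.81 and 7.15 FPKM (0.59 ± 0.11, adjusted p = 0.00196), and the KRAB gene Zfp266 at 3.41, 3.79 and 3.35 against 4.84, 5.29 and 6.12 FPKM (0.50 ± 0.076, adjusted p = 4.97e-04). Both were also higher under YAP/TAZ siRNA after heat (0.47 ± 0.13 and 0.50 ± 0.085), the first neither with median-of-ratios scaling (adjusted p = 0.0544) nor without heated control siRNA replicate 3 (log2 0.44, adjusted p = 0.0634). Without heat the libraries of the 2 siRNAs did not overlap in either gene, which was a condition for naming them.

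The remaining 3 of the 6 largest rises were weak. Zfp664 was at 4.95, 4.71 and 6.66 against 9.45, 14.5 and 13.6 FPKM (1.06 ± 0.37, adjusted p = 0.0407), Zfp513 at 4.74, 4.24 and 4.01 against 7.73, 7.29 and 7.99 FPKM (0.70 ± 0.22, adjusted p = 0.0263) and Zfp317 at 3.33, 2.62 and 2.18 against 4.29, 4.29 and 4.37 FPKM (0.53 ± 0.19, adjusted p = 0.0451). Their groups did not overlap, as the naming required. Each call was lost without unheated control siRNA replicate 2, among other libraries (adjusted p = 0.107, 0.0652 and 0.101). That of Zfp317 was also lost under both scalings (adjusted p = 0.0559 and 0.0823).

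The lower members without heat were led by Zfp568, at 4.72, 4.30 and 3.29 FPKM under control siRNA and 2.93, 2.95 and 2.01 FPKM under YAP/TAZ siRNA (-0.49 ± 0.13, adjusted p = 0.0111). Zfp692 (-0.45 ± 0.068, adjusted p = 5.07e-04) and Zfp593 (-0.39 ± 0.10, adjusted p = 0.00867) followed, with the values given above. Zfp770 was at 7.53, 8.24 and 7.07 against 5.67, 6.43 and 5.38 FPKM (-0.34 ± 0.085, adjusted p = 0.00916) and Zfp511 at 8.27, 8.39 and 9.41 against 6.12, 7.01 and 7.20 FPKM (-0.32 ± 0.075, adjusted p = 0.00632). The 6 largest called falls among members without overlap, Zfp106 among them, were called under every alternative.

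YAP/TAZ siRNA after heat was accompanied by higher levels of 20 members and lower levels of 17, with 48 not called, while 36.3% of all genes were higher and 17.9% lower. The members' shares were 23.5% and 20%, against 38.9% and 17.0% of genes of similar level. The members' median was -0.021, against 0.15, and the difference from genes of similar level was -0.17 on the deposited scale, -0.18 under median-of-ratios scaling and -0.16 under quantile normalization. The median of all genes was 0.13, and 0.0018 and 0.047 under the other scalings, where the split of the members was 16 higher and 27 lower, and 17 and 23. With median-of-ratios scaling 25.004% of all genes were higher and 26.1% lower, and with quantile normalization 29.4% and 23.3%. All 17 lower calls and 16 of the 20 higher ones were kept under both scalings. The members' median was 0.045 without heated YAP/TAZ siRNA replicate 3, -0.114 without replicate 2 of that group and -0.087 without heated control siRNA replicate 3.

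Zfp507 (-1.43 ± 0.23, adjusted p = 7.14e-04), Zfp568 (-1.27 ± 0.15, adjusted p = 8.62e-05) and Zfp516 (-1.05 ± 0.17, adjusted p = 7.05e-04) were lowest relative to heated control siRNA cells. Zfp568 was at 2.28, 2.21 and 2.07 FPKM in the heated YAP/TAZ siRNA libraries, against 7.10 and 6.33 FPKM. Zfp654 (-0.80 ± 0.12) and Zfp281 (-0.73 ± 0.12) came next, and then Zfp609, whose product partners the cohesin loader NIPBL, with 10.9 and 9.96 FPKM under control siRNA and 6.498, 7.19 and 5.87 FPKM under YAP/TAZ siRNA (-0.61 ± 0.14, adjusted p = 0.00538). These 6 were named among called members whose heated libraries did not overlap between the siRNAs, and their calls held in every alternative.

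At the other end, Zfp524 was higher by 1.15 ± 0.14 (adjusted p = 1.10e-04). Zfp984, a KRAB gene with 11 fingers that lies within 500 kb of 7 other numbered Zfp genes and could share reads with similar copies, was at 1.70 and 1.58 FPKM under control siRNA and 3.42, 4.60 and 4.05 FPKM under YAP/TAZ siRNA after heat (0.92 ± 0.14, adjusted p = 5.52e-04). Zfp444, a SCAN gene, was at 1.88 and 1.88 against 3.87, 3.24 and 3.32 FPKM (0.63 ± 0.074, adjusted p = 1.01e-04).

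Zfp523, a relative of the promoter activator Zfp143, was at 3.26 and 3.06 against 5.15, 6.08 and 5.01 FPKM (0.62 ± 0.094, adjusted p = 4.88e-04) after heat. Zfp414 (0.77 ± 0.084) and Zfp687 (0.73 ± 0.12) were higher too. Naming these 6 genes required that heated libraries did not overlap between the siRNAs. In each of them both heated control siRNA libraries lay below all 9 others. By group means, heated control siRNA cells were lowest for 43.5% of members and for 48.6% of genes of similar level.

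The siRNA comparisons without and after heat, which share no library, had 12 members higher in both and 6 lower in both. Those lower in both were 50.0% of 12 and 35.3% of 17, against 33.6% and 47.8% for genes of similar level. Zfp692 and Zfp408 were called in opposite directions (2.35% of members, against 6.44% of genes of similar level). Zfp692 was lower without heat (-0.45 ± 0.068) and higher after it (0.58 ± 0.076), and Zfp408 was higher without heat (0.31 ± 0.063) and lower after it (-0.34 ± 0.070). The calls of both genes held under both scalings and without any 1 library. Those higher in both were 52.2% of 23 and 60% of 20, against 70.9% and 50.0%. Across the members the 2 log2 changes had a Pearson correlation of 0.25, against 0.44 across genes of similar level.

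**Figure D4:**
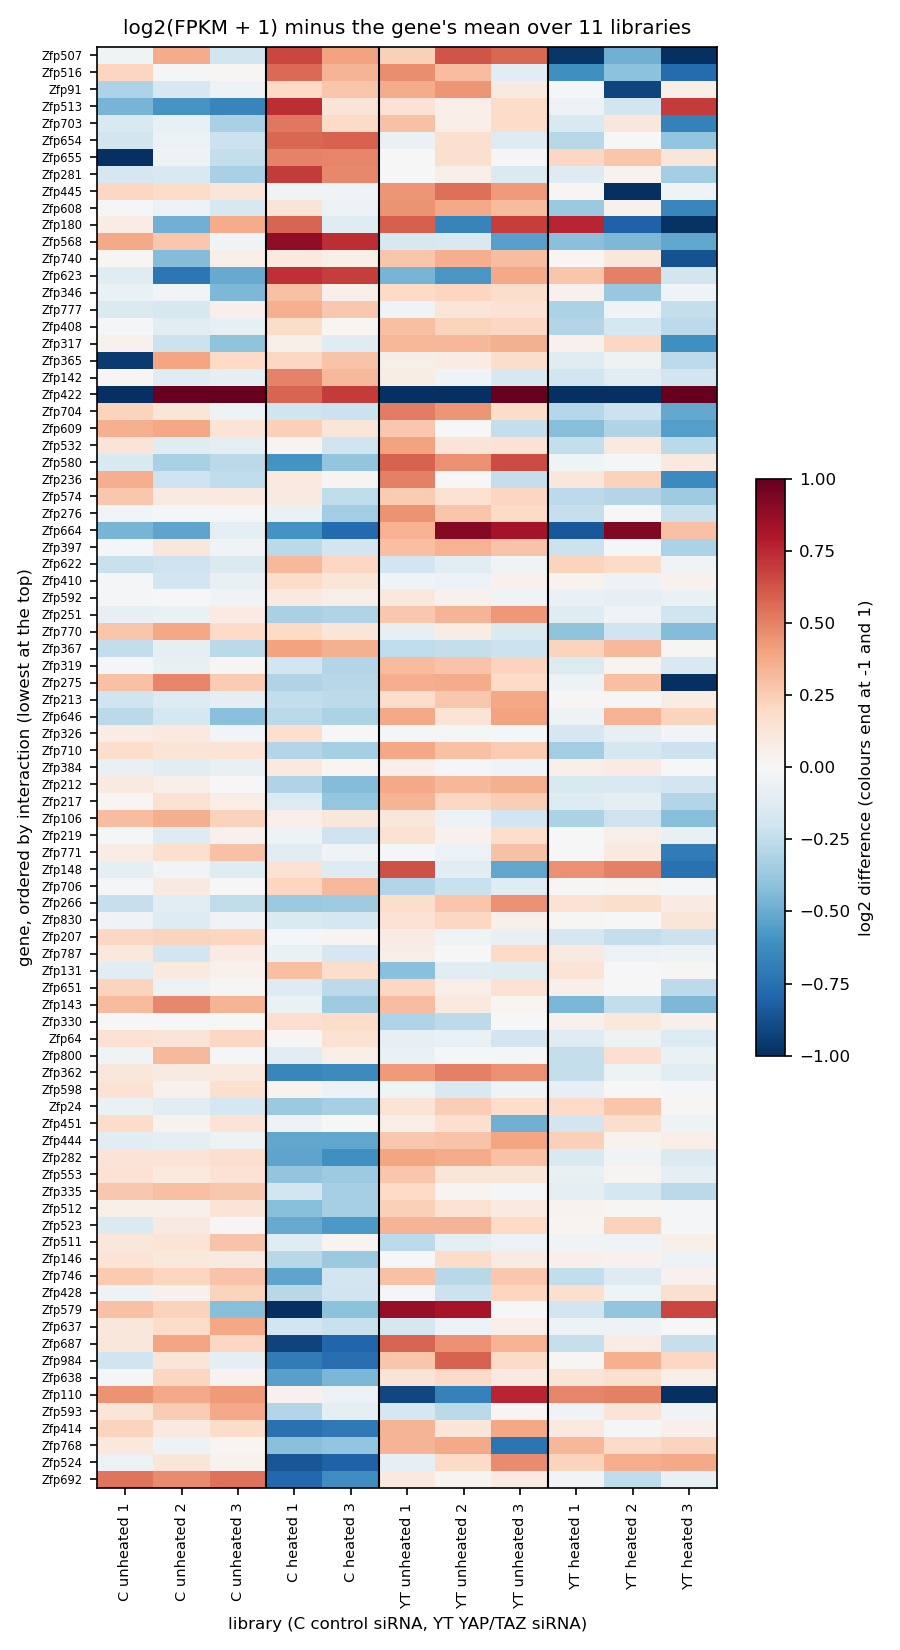
Colour gives log2(FPKM + 1) of each of 85 members (rows, ordered by interaction) in each of 11 libraries (columns, by group), minus the mean of the gene. The top rows, Zfp507 and Zfp516, are high in heated control siRNA and low in heated YAP/TAZ siRNA libraries. Further down this varies: Zfp91 has its highest mean in unheated YAP/TAZ siRNA and Zfp513 its lowest in unheated control siRNA cells. The bottom rows, up from Zfp692, are low in heated control siRNA libraries, and single libraries stand apart for Zfp445 and Zfp655.

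Group means were ordered on the deposited scale only, and their order under the other scalings was not tested. Seen by group means, 39 members (45.9%, against 35.6% of genes of similar level) were highest in unheated YAP/TAZ siRNA cells and 23 (27.1%, against 14.3%) in heated control siRNA cells. Only 4 (4.71%, against 18.7%) were highest in heated YAP/TAZ siRNA cells, and 19 (22.4%, against 31.5%) in unheated control siRNA cells. The lowest mean was in heated control siRNA cells for 37 members (43.5%, against 48.6%) and in heated YAP/TAZ siRNA cells for 29 (34.1%, against 22.01%). Heated control siRNA cells thus held the lowest mean of some members and the highest of others. The range over the group means had a median of 0.57 on the log2 scale, against 0.59 for genes of similar level, and the spread within groups had a median SD of 0.12, against 0.098. In all, 68 members (80.0%, against 85.6%) were called in at least 1 of the 5 comparisons and 17 in none.

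**Figure D5:**
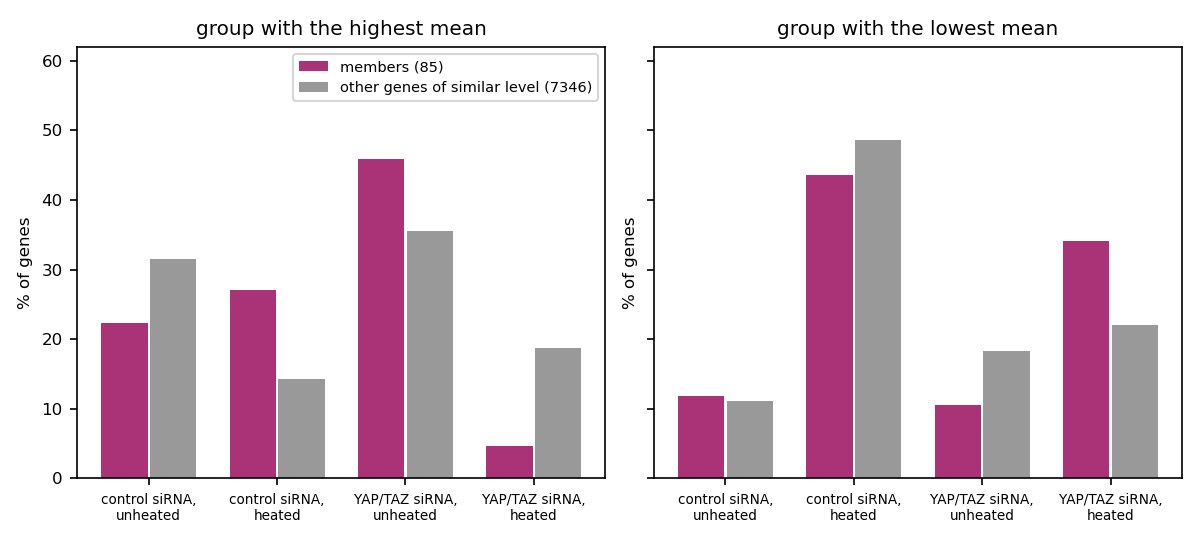
Bars give the share of genes whose highest (left) or lowest (right) group mean lies in each of the 4 groups, for 85 members and 7346 other tested genes of similar level, on an axis that starts at 0. The means are on the deposited scale. Heated YAP/TAZ siRNA cells hold the highest mean of 4.71% of members and of 18.7% of the other genes, and the lowest mean of 34.1% and 22.01%.

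The 17 members called in no comparison were Zfp422, Zfp219, Zfp740, Zfp768, Zfp800, Zfp428, Zfp365, Zfp110, Zfp579, Zfp148, Zfp451, Zfp275, Zfp651, Zfp236, Zfp180, Zfp771 and Zfp787. Several of them, named after their values were seen, split within groups rather than between them. Under control siRNA Zfp422 measured 4.07, 23.8 and 23.5 FPKM before heat and 15.8 and 17.2 FPKM afterwards, and under YAP/TAZ siRNA 4.26, 4.14 and 27.4 FPKM before and 3.65, 3.53 and 22.8 FPKM afterwards. It was near 4 FPKM in 5 libraries and from 15.8 to 27.4 FPKM in the other 6, with the highest SD within groups of all members (1.27 on the log2 scale). Zfp110 was at 6.87, 6.47 and 6.74 FPKM before heat and 4.93 and 4.52 FPKM afterwards under control siRNA, and at 2.05, 2.60 and 8.75 FPKM before and 7.05, 7.14 and 1.17 FPKM afterwards under YAP/TAZ siRNA. For Zfp180 these were 3.53, 2.10 and 4.57 FPKM, 5.47 and 2.96 FPKM, 5.52, 1.72 and 5.95 FPKM and 6.29, 1.46 and 1.17 FPKM. The cause of these splits was not tested.

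By level, the pattern of the interaction was alike in its direction. Among 23 members of 3 to 5 FPKM its median was -0.22 (0.077 for 1694 other genes of that level), among 47 members of 5 to 10 FPKM it was -0.096 (0.13 for 2511), and among 15 of 10 FPKM or more it was -0.063 (0.18 for 3141). For heat under control siRNA, 4 of 23, 4 of 47 and 5 of 15 were higher in these bands, against 8.15%, 8.56% and 9.52% of the other genes. In the same bands 4, 19 and 4 were lower, against 42.6%, 45.5% and 41.4%. With heat under YAP/TAZ siRNA, 0, 3 and 2 members were higher, against 8.97%, 12.3% and 23.5% of the other genes. The members' medians were -0.205, -0.245 and -0.0895 there, against -0.185, -0.145 and -0.0308. Under YAP/TAZ siRNA without heat, 2, 6 and 4 members were lower, against 16.7%, 21.7% and 30.0%.

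Members with at least 3 fingers (62) were higher under YAP/TAZ siRNA without heat in 20 cases and lower in 6 (median 0.16), and the 23 with fewer fingers in 3 and 6 cases (median -0.030). With heat under YAP/TAZ siRNA, 2 and 25 of the 62 were higher and lower, and 3 and 7 of the 23. Of all genes, 27.1% were higher and 21.9% lower in the first of these comparisons and 18.6% and 31.7% in the second, and these shares apply to the KRAB and SCAN counts as well. The difference between the 2 kinds of members was not tested. Of the 9 members with a KRAB box by the wider pattern, 5 were higher and 1 lower under YAP/TAZ siRNA without heat, and 0 were higher and 4 lower with heat under YAP/TAZ siRNA. Of 6 with a SCAN domain by a wider pattern, 4 and 0 were higher and lower under YAP/TAZ siRNA without heat.

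The 22 members near another member formed 9 runs, the largest with 4 genes on chromosome 6: Zfp282 (47877204 to 47908485) and Zfp212 (47920476 to 47932639) on the plus strand, 11991 bases apart, and Zfp777 (48024188 to 48048911) and Zfp746 (48062395 to 48086593) on the minus strand. Zfp212 fell with heat under either siRNA (-0.42 ± 0.054 and -0.52 ± 0.048, adjusted p = 1.72e-04 and 5.54e-05), from 11.7, 11.6 and 11.02 to 8.71 and 7.85 FPKM and from 14.6, 14.04 and 14.3 to 9.78, 9.75 and 9.47 FPKM. Its neighbour Zfp282 fell under both as well (-0.71 ± 0.060 and -0.46 ± 0.054), and these calls held under both scalings. Zfp746, which encodes a repressor of PGC-1alpha, was at -0.61 ± 0.17 and -0.21 ± 0.16 (adjusted p = 0.0156 and 0.292; the first was 0.0692 and 0.0966 under the other scalings), while Zfp777 rose under control siRNA. The 4 neighbours thus did not share 1 direction. On chromosome 7, Zfp524 and Zfp580 lie 33050 bases apart, and their interactions were 0.99 ± 0.18 and -0.30 ± 0.12 (adjusted p = 0.00296 and 0.0725).

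Genes of the silencing machinery that KRAB proteins recruit had 17 of 29 lower and 1 higher with heat under control siRNA (median -0.31), against 36.9% and 12.4% of all genes. With median-of-ratios scaling 9 were lower and 4 higher (median -0.12), against 21.7% and 22.2% of all genes, and with quantile normalization 10 and 4 (median -0.17), against 25.8% and 18.5%. Trim28, the corepressor itself, went from 129, 124 and 137 to 98.1 and 104 FPKM (-0.36 ± 0.051, adjusted p = 3.36e-04). Uhrf1 (-1.17 ± 0.047) and Dnmt1 (-0.77 ± 0.072), which maintain DNA methylation, and the remodeller Chd4 (-0.65 ± 0.055) were lower too. Under YAP/TAZ siRNA 10 were lower and 4 higher with heat (median -0.11), with a split of 5 and 6 with median-of-ratios scaling and of 7 and 1 with quantile normalization. YAP/TAZ siRNA without heat had 6 higher (4 under each of the other scalings) and 12 lower (14 with median-of-ratios scaling), among the latter Trim28, at 88.6, 89.2 and 90.4 FPKM (-0.53 ± 0.046, adjusted p = 1.39e-05), and after heat 4 lower and 11 higher (8 and 5 with median-of-ratios scaling, and under quantile normalization 7 and 5). The interaction was higher for 7 and lower for 2 (4 and 3 under each of the other scalings), with Uhrf1 at 1.38 ± 0.063 and Atf7ip, a partner of the methyltransferase SETDB1, at -0.81 ± 0.12.

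Zinc finger genes of other name series were counted the same way. SCAN genes (14 of 30 tested) had 5 higher and 4 lower with heat under control siRNA (8 and 3, and 7 and 4, with median-of-ratios scaling and quantile normalization) and 1 and 8 under YAP/TAZ siRNA (1 and 6, and 1 and 4, under the same scalings), and the interaction was lower for 8 and higher for 2 (median -0.42, and -0.51 and -0.38 under the other scalings). Zscan29 rose with heat under control siRNA by 2.18 ± 0.076 (adjusted p = 1.26e-07) and had an interaction of -1.91 ± 0.10, and Zkscan5 had 1.28 ± 0.10 and -1.80 ± 0.14. Without heat 9 were higher and 0 lower under YAP/TAZ siRNA (2 and 0 with quantile normalization), and after heat 3 and 6.

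BTB genes (31 of 35 tested) had 8 higher and 11 lower with heat under control siRNA (10 and 7, and 10 and 9, under the other scalings), with Zbtb11 at 1.04 ± 0.082 and Zbtb45 at -1.10 ± 0.089, and 2 and 9 under YAP/TAZ siRNA (2 and 5 with quantile normalization). Their interaction was higher for 6 and lower for 10 (median -0.32). YAP/TAZ siRNA had 10 higher and 5 lower without heat (6 and 7 with quantile normalization), and 7 and 10 after it (5 and 12 with median-of-ratios scaling). Zbtb32 is counted as higher with heat under control siRNA, and as lower in the interaction and under YAP/TAZ siRNA after heat. It passed the filter on low values only through the heated control siRNA libraries (1.27 and 1.22 FPKM). CCCH genes (16 of 17 tested), which mostly bind RNA, had 2 higher and 5 lower with heat under control siRNA (5 and 2, and 5 and 4, under the other scalings), 1 and 7 under YAP/TAZ siRNA, and 1 and 5 in the interaction (median -0.15). Under YAP/TAZ siRNA with quantile normalization the heat split was 3 and 4. Without heat 7 were higher and 2 lower under YAP/TAZ siRNA (4 and 3 under each of the other scalings), and after heat 3 and 3 (1 and 5 with median-of-ratios scaling). Zc3h6 is counted as higher under YAP/TAZ siRNA in both states, and as lower with heat under YAP/TAZ siRNA and in the interaction. It passed the filter on low values only through the unheated YAP/TAZ siRNA libraries (1.47, 1.76 and 1.36 FPKM). As the background of these lists, 12.4% of all genes were higher and 36.9% lower with heat under control siRNA, 18.6% and 31.7% with heat under YAP/TAZ siRNA, and 24.6% and 13.4% in the interaction. Under YAP/TAZ siRNA 27.1% were higher and 21.9% lower without heat, and 36.3% and 17.9% after it. The shares of all genes under the other scalings are given above with the members' splits, and apply to these lists and to the silencing machinery.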

How the data were processed

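RNA of 11 libraries of B16-OVA cells was sequenced, and the authors deposited a table of FPKM values per gene, the unit used here; FPKM is already scaled to library size and gene length. Reads were trimmed with Trimmomatic 0.36 and handled with HISAT2, SAMtools, StringTie and DESeq2 on GRCm38, per the submitters' processing notes, which give no roles or settings. Library depth was estimated from the smallest steps between low values, and it limits the precision of low genes.

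The members and gene lists were chosen with earlier results of these data known. Groups followed the sample titles. With limma 3.58.1 in R 4.3.3, group means were fitted to log2(FPKM + 1) of 12626 genes (a minimum of 1 FPKM in 2 or more libraries; 7 residual degrees of freedom, variance trend), and p-values were adjusted by Benjamini-Hochberg over all genes within each of 5 comparisons. The procedure was tested on simulated data. Genes of similar level are those tested with a mean between 3 FPKM and the highest member's.

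The text names, per comparison, up to 6 called members in each direction whose groups did not overlap (for the interaction, any called member), ordered by size of change, then the 5 most abundant members, those at the level threshold, the nearest neighbours of the largest run, and list genes by p. Others are named after their values were seen: Zfp408, Zfp777, Zfp422, Zfp110, Zfp180, Zfp746, Zfp142, Zfp384 and, for the interaction, Zfp281 and Zfp580. Alternatives were other pseudocounts (0.1 and 0.5), scalings, filters, a replicate block, no variance trend, other level thresholds and leaving out each library. Gene coordinates, overlaps and translated proteins came from the GRCm38 annotation, promoter windows from the RefSeq table. For the deposited values, annotation release and strandedness: not given in the sources used here.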

Additional observations from a re-analysis of the deposited data

Results flagged for a closer look

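For 12 members the heat response under YAP/TAZ siRNA differed from that under control siRNA by the interaction term in limma. The difference, YAP/TAZ siRNA minus control siRNA on the log2 scale, was -1.86 for Zfp507, -1.20 for Zfp516, -0.999 for Zfp91, -0.99 for Zfp513, -0.96 for Zfp703 and -0.94 for Zfp654. It was 1.03 for Zfp692, 0.99 for Zfp524, 0.66 for Zfp414, 0.61 for Zfp593, 0.56 for Zfp638 and 0.50 for Zfp687. These are the 6 largest in each direction among the 13 and 12 called. Calls of Zfp91, Zfp513, Zfp703, Zfp593 and Zfp687 were lost without heated control siRNA replicate 1 (adjusted p = 0.107, 0.192, 0.102, 0.0584 and 0.137). The 7 others held without any 1 library.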

How the results depend on the processing

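Of 59 calls of named members, 43 held in every alternative in which they were tested and none changed direction. The filter at 5 FPKM left 55 of the 59 to be tested, and these 55 held there. With 1 heated control siRNA library left out, the lone remaining one is assumed to vary like the other groups, and leaving out replicate 1 of that group ended the most calls (12). The cause of the changes below was not tested, except that leaving out libraries or changing the level threshold changes how many samples or members enter. Under quantile normalization and median-of-ratios scaling alike, heat under control siRNA had 22 members higher and 17 lower in each, with medians of 0.017 and 0.031. Under median-of-ratios and then quantile scaling, heat under YAP/TAZ siRNA had 20 lower in each and medians of -0.13 and -0.055, with 9 higher under quantile normalization and 3 higher with no filter. The interaction under median-of-ratios scaling had 6 higher and 20 lower, and medians of -0.20 and -0.18. YAP/TAZ siRNA after heat had 27 lower with median-of-ratios scaling and medians of -0.18 and -0.11, and the median of YAP/TAZ siRNA without heat was 0.089 with quantile normalization. The shares of all genes also moved with the scaling, and are given above for each comparison. With members from 1 FPKM, a level that 158 numbered Zfp genes reached, 59 and 62 were lower with heat under control and YAP/TAZ siRNA (median -0.21 under control siRNA). Of all genes, 36.9% and 31.7% were lower in these comparisons. In the interaction 20 of these members were lower (median -0.043), against 13.4% of all genes. Under YAP/TAZ siRNA 48 were higher in each state (median 0.059 after heat), against 27.1% of all genes without heat and 36.3% after it. With members from 5 FPKM the median with heat under control siRNA was -0.21. Without 1 library, members higher with heat ranged from 6 to 16 under control siRNA and from 2 to 7 under YAP/TAZ siRNA. The interaction ranged from 6 to 13 higher, from 7 to 15 lower and from -0.14 to -0.037 in its median. The median for YAP/TAZ siRNA after heat ranged from -0.11 to 0.045, positive without heated YAP/TAZ siRNA replicate 3. Samples share only a replicate number: deviations from group means correlated at -0.110 to 0.134 over 15 same-numbered pairs and at -0.180 to 0.155 over 30 others. With the replicate block this median was -0.062, and 3 of the 59 calls were lost (heat under YAP/TAZ siRNA for Zfp131 and the interaction for Zfp91 and Zfp513). No filter ended 9 calls. Depth limits most the members with few fragments, a number set by transcript length as well as by FPKM.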
